A study of Oryza sativa with 2 samples.

Results

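The transcript levels of 8 rice genes of the CLAVATA, WOX and LOG groups, most of them known for roles in meristems, were compared between 1 RNA sequencing library of wild-type XD1B and 1 library of the lf2 mutant. They were chosen by name and locus and are 8 of the 57446 genes in the deposited table. The set holds the CLAVATA-type pair FON2 (LOC_Os11g38270) and FON1 (LOC_Os06g50340), the WUSCHEL-related homeobox (WOX) genes TAB1 (LOC_Os04g56780) and WOX4 (LOC_Os04g55590), and the gene pair NAL2 (LOC_Os11g01130) and NAL3 (LOC_Os12g01120). It also holds the cytokinin gene LOG (LOC_Os01g40630) and the corepressor gene ASP1 (LOC_Os08g06480). Both libraries came from young panicles under 2 cm. The labels give XD1B as the wild type and lf2 as the LF2 mutant. LF2, or LATERAL FLORET 2, is a gene for an SNF2-type chromatin remodelling factor. No source used here gives the lesion in lf2, the number of plants pooled or their age.

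In the CLAVATA pathway a small secreted CLE peptide is perceived by a leucine-rich repeat receptor kinase at the cell surface, and this signal restrains the pool of stem cells in a meristem. The homeobox factors of the WUSCHEL class act in the opposite direction and keep stem cells undifferentiated, and cytokinin, which LOG converts to its active form, favours meristem activity. In rice, loss of FON1 or FON2 enlarges the floral meristem and adds floral organs, TAB1 is needed to start axillary meristems, and loss of LOG ends meristems early.

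Of the 8 genes, LOG was higher in lf2 on the authors' scale, and TAB1, FON1, WOX4 and NAL2 were lower. ASP1 differed by less than its counting error. The calls for FON1, WOX4 and ASP1 depend on the scaling. Well-expressed genes had a median ratio of lf2 to XD1B of 0.760. Relative to it, WOX4 no longer differed beyond counting error, at 0.837 (0.609 to 1.14). ASP1 was then higher in lf2, at 1.31 (1.26 to 1.35). FON1 stayed lower on that scale, but not relative to panicle and meristem markers. Their median ratio of 0.662 lies inside the undivided FON1 interval of 0.443 to 0.673. FON2 and NAL3 were too low to compare. The difference at LOG was 2.03-fold, and TAB1 stood in lf2 at 0.218 of its wild-type level. Each genotype has 1 library, so replicate error is unknown and nothing was tested.

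Levels are the authors' FPKM, fragments per kilobase of gene scaled to library depth. Whole fragment numbers, recovered from these values, put the depth at about 29111345 fragments for XD1B and 27373727 for lf2. An interval beside a level is an exact Poisson 95% interval, and one beside a ratio an exact Clopper-Pearson 95% interval. Both cover counting error only. In a whole panicle, fewer cells of a type and less RNA per cell cannot be told apart. Panicle and meristem markers were present in both libraries, with 9 of 10 at FPKM of at least 1 and FZP, a spikelet identity gene, at 0.367 in XD1B and 0.219 in lf2. Across genes that reached FPKM 5 in XD1B and in lf2 alike, the median ratio of lf2 to XD1B was 0.760. Ratios of FON1, TAB1, WOX4, LOG, ASP1, ASPR1 and WOX8 are therefore also given after division by this value. Those of other genes are undivided. Division raises every ratio, so an undivided ratio just below 1 can lie above 1 after it.

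FON2 encodes the CLE peptide of the pathway. Its level was 0.437 FPKM (0.142 to 1.02) in XD1B, from 5 fragments, and 0.372 (0.101 to 0.952) in lf2, from 4 fragments. The intervals overlap over most of their length. The ratio of 0.851 has an interval of 0.169 to 3.95, so no difference was detectable at this depth.

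FON1 encodes the receptor kinase, the rice counterpart of Arabidopsis CLAVATA1. Its level was 2.91 FPKM (2.58 to 3.28) in XD1B and 1.60 (1.34 to 1.88) in lf2. The lf2 level was the lower one and the intervals do not overlap. The ratio was 0.547 (0.443 to 0.673), and 0.720 (0.583 to 0.885) after division by the median ratio. The undivided interval includes 0.662, the median ratio of the panicle and meristem markers. Relative to these markers FON1 thus did not differ beyond counting error. In XD1B the receptor gene stood 6.67-fold (2.82 to 20.7) above its ligand gene per length, and in lf2 4.29-fold (1.64 to 16.0).

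FOS1 (LOC_Os02g21890) encodes another CLE peptide, known to be able to act in place of FON2. It was at 0.112 FPKM in XD1B, from 4 fragments, and at 16.7 in lf2, from 561. The ratio of 149 had an interval of 57.9 to 549. In the lf2 library the FOS1 level was therefore far above that of FON2, whereas in XD1B both peptide genes stood under FPKM 1. FOS1 is the 1 checked name in a list of 6 further CLE peptide and receptor genes. Of that list 5 reached FPKM 1, 2 of them in lf2 only. FOS1 was the 1 gene past 2-fold upwards, 1 gene was past 2-fold downwards, and the median log2 ratio was -0.42. Over all genes at FPKM 1 in either library, 15.3% were past 2-fold upwards and 8.23% downwards.

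**Figure D1:**
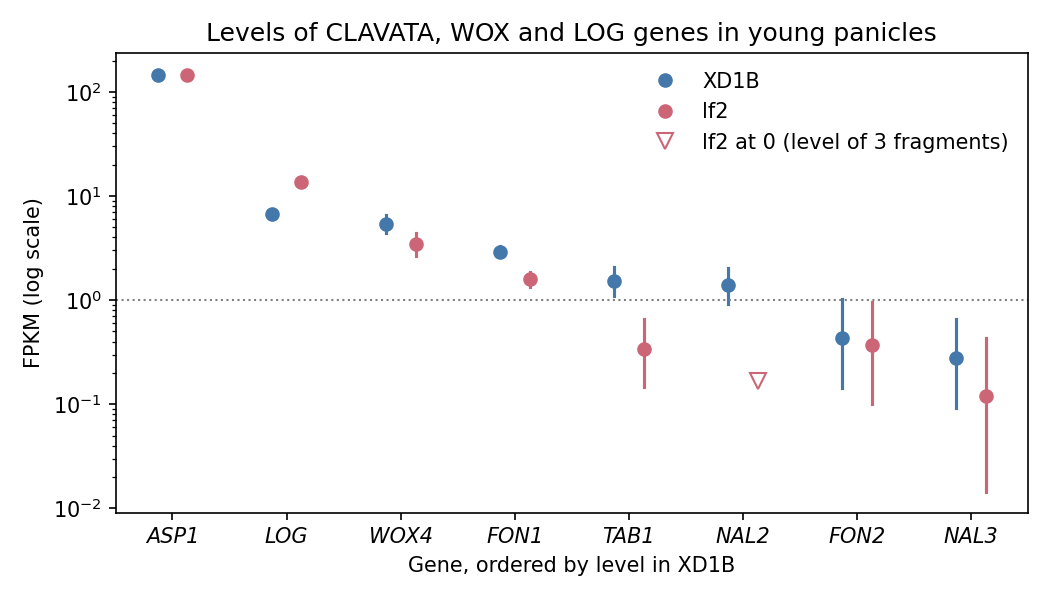
FPKM (log axis) of each of the 8 genes in the XD1B library (blue) and the lf2 library (red), with exact Poisson 95% intervals as bars; the dotted line is FPKM 1 and the open triangle marks NAL2, listed at 0 in lf2, at the level of 3 fragments (0.166). ASP1 stands at 145.5 and 144.4, LOG is the gene with the higher lf2 level, and the bars of FON2 and of NAL3 overlap between libraries.

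TAB1 is the rice orthologue of Arabidopsis WUSCHEL. Its level was 1.54 FPKM (1.10 to 2.11) in XD1B, from 39 fragments, and 0.336 (0.145 to 0.662) in lf2, from 8. The lf2 level was the lower one, and the intervals do not overlap. The ratio was 0.218 (0.0881 to 0.474), and after division by the median ratio it was 0.287 (0.116 to 0.623). The log2 ratio on the scale of FPKM + 1, which understates differences of low genes, was -0.93.

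WOX4 promotes maintenance of the vegetative shoot meristem and is expressed in vascular cells as well. It stood at 5.41 FPKM (4.46 to 6.51) in XD1B and 3.44 (2.67 to 4.37) in lf2. Again the lf2 level was lower and the intervals do not overlap. The ratio of 0.636 (0.463 to 0.869) became 0.837 after division by the median ratio, with an interval of 0.609 to 1.14 that includes 1.

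NAL2 and NAL3 are near-identical copies on chromosomes 11 and 12, each encoding WOX3A, a factor of lateral organ margins and leaf width. NAL2 stood at 1.41 FPKM (0.927 to 2.05) in XD1B, from 27 fragments, and was listed at 0 in lf2. Its XD1B level was 8.46-fold the FPKM of 3 fragments in the lf2 library, a value that leaves the error of the XD1B count aside. The counting interval of the ratio, which also covers the error of the XD1B count, reached up to 0.156. NAL3 stood at 0.281 FPKM in XD1B, from 5 fragments, and at 0.119 in lf2, from 2, a ratio of 0.425 with an interval of 0.0405 to 2.60. No source used here says how the authors' counting shared reads between such copies, so the split between the 2 genes is uncertain. As 1 unit the pair had 32 fragments in XD1B and 2 in lf2, a ratio of fragments of 0.0665 (0.00772 to 0.261). The lower level in lf2 thus held for the pair as a whole.

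The other WOX genes were split in direction. Of 9 further WOX loci, 7 were measured, meaning FPKM of at least 1 in either library, and 3 of these were higher in lf2 by 2-fold or more and 0 lower by as much. Across every measured gene the shares were 15.3% higher (3395 genes) and 8.23% lower (1822). Division of the lf2 values by 0.760 made this 4322 higher and 389 lower. These counts rest on a cutoff of 1 in either direction for the log2 ratio of FPKM + 1, a threshold of size without a test. The median log2 ratio was 0.59, against -0.31 over all measured genes, but 4 of the 7 were measured through their lf2 level alone, among them the 3 past 2-fold. Of the 7, 3 lay below 0, and for 2 the counting interval of the ratio lay below 1. The first of these, LOC_Os05g02730, whose symbol was not checked, had the highest level of the listed WOX loci in both libraries. It stood at 27.7 FPKM in XD1B and 15.4 in lf2, with a ratio of 0.554 (0.486 to 0.630). The second, LOC_Os05g48990, also without a checked symbol, had a ratio of 0.617 (0.447 to 0.845).

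WOX11, which promotes crown root formation, stood at 0.121 FPKM in XD1B, from 5 fragments, and at 11.6 in lf2, from 450, a ratio of 95.7 (40.7 to 296). QHB, a homeobox gene of the root quiescent centre, was at 0.461 FPKM in XD1B and 6.20 in lf2, 13.4-fold apart (8.07 to 23.9). WOX6 was at 0.566 FPKM in XD1B and 5.54 in lf2, 9.80-fold apart (5.63 to 18.4). These 3 genes were at low levels in the wild type and in lf2 stood above TAB1 and WOX4. WOX8 stood at 8.89 FPKM in XD1B and 8.70 in lf2, with a ratio of 0.978 (0.868 to 1.10). This became 1.29 (1.14 to 1.45) after division by the median ratio. Among the checked names of the list WOX8 had the highest level in the XD1B library. Summed over the 13 listed WOX loci the level was 49.6 FPKM in XD1B and 54.8 in lf2. Any WOX gene not listed is left out of these sums. Within these sums LOC_Os05g02730 made up 56.0% in XD1B and 28.0% in lf2. TAB1 made up 3.11% in XD1B and 0.613% in lf2, and WOX4 10.9% and 6.28%.

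**Figure D2:**
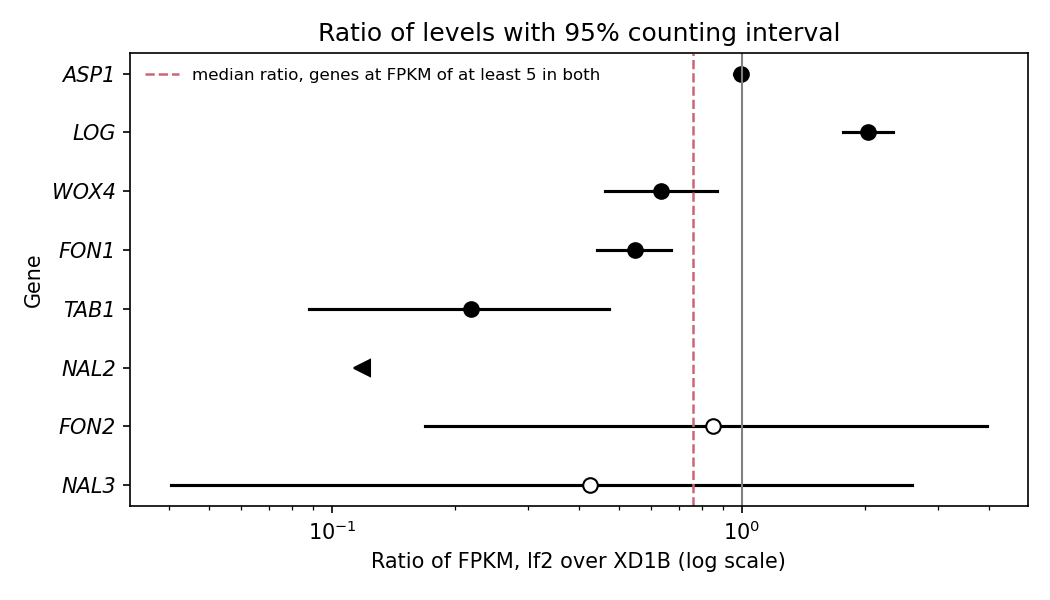
Ratio of FPKM in lf2 to XD1B (log axis) for each of the 8 genes, with exact Clopper-Pearson 95% intervals. Filled points are measured genes and open points genes under FPKM 1 in XD1B and lf2. The arrow at NAL2 stands at the ratio that 3 fragments in lf2 would give, with no interval drawn. LOG lies above 1, ASP1 at 0.992, and the intervals of FON1, TAB1 and WOX4 lie below 1, with WOX4 crossing the dashed line, the median ratio of 0.760.

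LOG encodes the enzyme that releases active cytokinin from its nucleotide form and is known from the tips of shoot meristems. Its level was 6.70 FPKM (5.97 to 7.50) in XD1B, from 305 fragments, and 13.6 (12.5 to 14.7) in lf2, from 581. On the authors' scale LOG was the 1 gene of the 8 with the higher level in lf2. The ratio was 2.03 (1.76 to 2.33), and 2.67 (2.32 to 3.07) after division by the median ratio. On the log2 scale of FPKM + 1 the difference was 0.92, just under the 2-fold rule. Of all measured genes, 83.8% had a lower log2 ratio.

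The other LOG-type genes were divided. All 10 were measured. In lf2, 4 of them were past 2-fold upwards and 1 past 2-fold downwards, against 15.3% and 8.23% of all measured genes. The median log2 ratio was -0.10, which turns to 0.28 when lf2 is rescaled to a median ratio of 1. LOGL3 stood at 10.9 FPKM in XD1B and 223 in lf2, a ratio of 20.4 (18.5 to 22.6). LOGL9 and LOGL8 had ratios of 6.59 (5.34 to 8.19) and 6.30 (4.81 to 8.36), and LOGL5 a ratio of 2.64 (2.00 to 3.51). LOGL6 went the other way, from 24.3 FPKM in XD1B to 8.40 in lf2, with a ratio of 0.345 (0.298 to 0.398).

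The make-up of the family differed between the libraries. LOGL7 had the highest level of the 11 genes in XD1B, at 39.1 FPKM, and stood at 33.9 in lf2. In lf2 LOGL3 had the highest level. The summed level of the 11 genes was 154.7 FPKM in XD1B and 361.6 in lf2, and LOGL3 made up 7.05% and 61.6% of these sums. LOG itself made up 4.33% in XD1B and 3.76% in lf2 of the sum of the 11 genes.

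Genes for earlier steps of cytokinin synthesis and for its receptors had a list median near that of all genes, with single genes differing in both directions. Of 14 such genes 7 were measured, of which 1 was past 2-fold upwards and 0 downwards, and 5 of the 7 lay below 0. The median log2 ratio was -0.38, against -0.31 over all measured genes. The counting interval of the ratio lay above 1 for 2 of the 7 and below 1 for 4. Over all measured genes these shares were 28.2% and 55.0%. Of all measured genes 15.3% were past 2-fold upwards and 8.23% downwards, and 65.2% lay below 0. Of the 14 names only 2, HK3 and HK4, were checked, so no synthesis gene is named. The receptor kinase gene HK3 was the 1 past 2-fold upwards, at 28.6 FPKM in XD1B and 65.0 in lf2, a ratio of 2.27 (2.08 to 2.49). HK4, another cytokinin receptor gene, had 26.2 FPKM in XD1B and 14.3 in lf2, a ratio of 0.546 (0.513 to 0.581).

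ASP1 encodes a TOPLESS-type corepressor that acts in axillary meristems and panicle branching. It stood at 145.5 FPKM (142 to 149) in XD1B and 144.4 (141 to 148) in lf2. The levels overlap within counting error, with a ratio of 0.992 (0.958 to 1.03). Relative to the median ratio ASP1 was higher in lf2, at 1.31 (1.26 to 1.35), so its standing depends on the scaling.

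The other TOPLESS-type genes gave different values. ASPR2 (LOC_Os01g15020) stood at 42.4 FPKM in XD1B and 191 in lf2, a ratio of 4.51 (4.37 to 4.65). ASPR1 (LOC_Os03g14980) had 109 FPKM in XD1B and 93.4 in lf2, a ratio of 0.857 (0.835 to 0.879). After division by the median ratio it was 1.13 (1.10 to 1.16), so its direction depends on the scaling. ASP1 thus had the highest level of the 3 genes in XD1B, with 49.0% of their summed FPKM, and ASPR2 the highest in lf2, where ASP1 made up 33.7% and ASPR2 44.6%. The sum itself was 297 FPKM in XD1B and 429 in lf2.

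**Figure D3:**
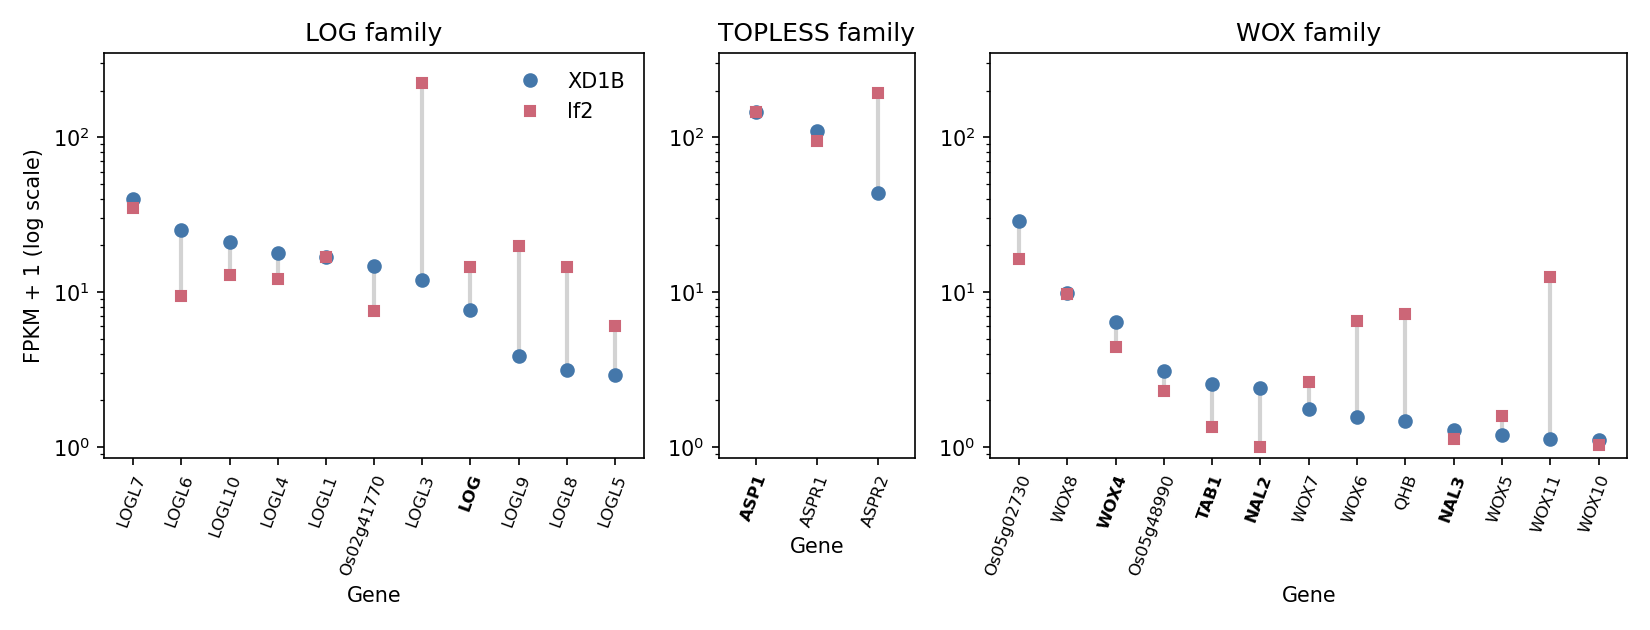
FPKM + 1 (log axis) of the listed genes of the LOG, TOPLESS and WOX families in XD1B (blue circles) and lf2 (red squares), ordered by the XD1B level. Genes described as members are in bold, and loci without a checked name are given by identifier. LOGL3, ASPR2 and WOX11 show the widest upward gaps in their panels, while TAB1 and WOX4 lie lower in lf2.

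Of the 6 measured genes among the 8, 5 had a log2 ratio below 0, as had 65.2% of all measured genes. NAL2 was the 1 gene past 2-fold downwards, and 0 were past it upwards. The shares of all measured genes were 8.23% downwards and 15.3% upwards. TAB1 and NAL2 were measured through their XD1B level alone, so the count over measured genes leans to the lower side by construction. The median log2 ratio of the 6, which leans the same way, was -0.56, against -0.31 over all measured genes. Over all 8 genes without the filter at FPKM 1, 7 lay below 0 and the median log2 ratio was -0.36. FON2 and NAL3, counted among these 7, were too low to compare. No share over all genes without the filter was computed, so this count has no background beside it. The counting interval of the ratio lay below 1 for 4 of the 6 and above 1 for 1, against 55.0% and 28.2% of all measured genes. Read against these shares, the counts show no direction particular to the 8 genes.

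The order of the levels per length was ASP1, LOG, WOX4, FON1, TAB1, NAL2, FON2 and NAL3 in XD1B. Neighbours with overlapping counting intervals were LOG and WOX4, TAB1 and NAL2, NAL2 and FON2, and FON2 and NAL3. In lf2 the order was ASP1, LOG, WOX4, FON1, FON2, TAB1, NAL3 and NAL2, with overlap among the last 4 from each gene to the next. LOG stood 1.24-fold (0.994 to 1.55) above WOX4 in XD1B and 3.94-fold (3.06 to 5.16) above it in lf2. The ratio of TAB1 to FON2 was 3.52 (1.39 to 11.5) in XD1B and 0.903 (0.242 to 4.10) in lf2, intervals that overlap. FON1 stood 1.89-fold (1.35 to 2.72) above TAB1 in XD1B and 4.75-fold (2.35 to 11.2) in lf2, which overlap as well.

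Among 21 checked genes of the other lists, the profile over the 2 libraries nearest to ASP1 was that of ASPR1, at a distance of 0.75 on the log2 scale of FPKM + 1. The nearest to LOG was WOX8, at 0.69. For FON1, TAB1, WOX4 and NAL2 the nearest were WOX7, WOX5, LOGL5 and WOX10, more distant at 1.12 to 1.22. The first 3 of these were higher in lf2, unlike the genes they lay nearest to. Loci without a checked symbol were not compared.

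Other differences between the libraries stand beside these values. OSH1, a homeobox gene of undifferentiated meristem cells, had a ratio of 0.701 (0.672 to 0.732). Divided by this ratio, TAB1 was at 0.311, FON1 at 0.780, WOX4 at 0.907, ASP1 at 1.42 and LOG at 2.89. These values depend on the marker chosen. The median ratio of the measured panicle and meristem markers was 0.662, and their log2 ratios of FPKM + 1 ran from -1.74 to 0.28. The summed FPKM of 10 panicle and meristem markers was 839 in XD1B and 525 in lf2, with 3 of 9 measured at least 2-fold lower. All 7 cell cycle and replication markers were at least 2-fold lower, with sums of 614 and 240 FPKM. Of 11 heat shock and jasmonate or wounding markers 10 were at least 2-fold higher, with sums of 209 and 1503 FPKM. The 6 green tissue markers had sums of 164 and 175 FPKM, with 1 at least 2-fold higher and 2 lower. None of the markers of these lists was at 0 in both libraries. The part of any of these in the levels of the 8 genes was not tested.

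**Figure D4:**
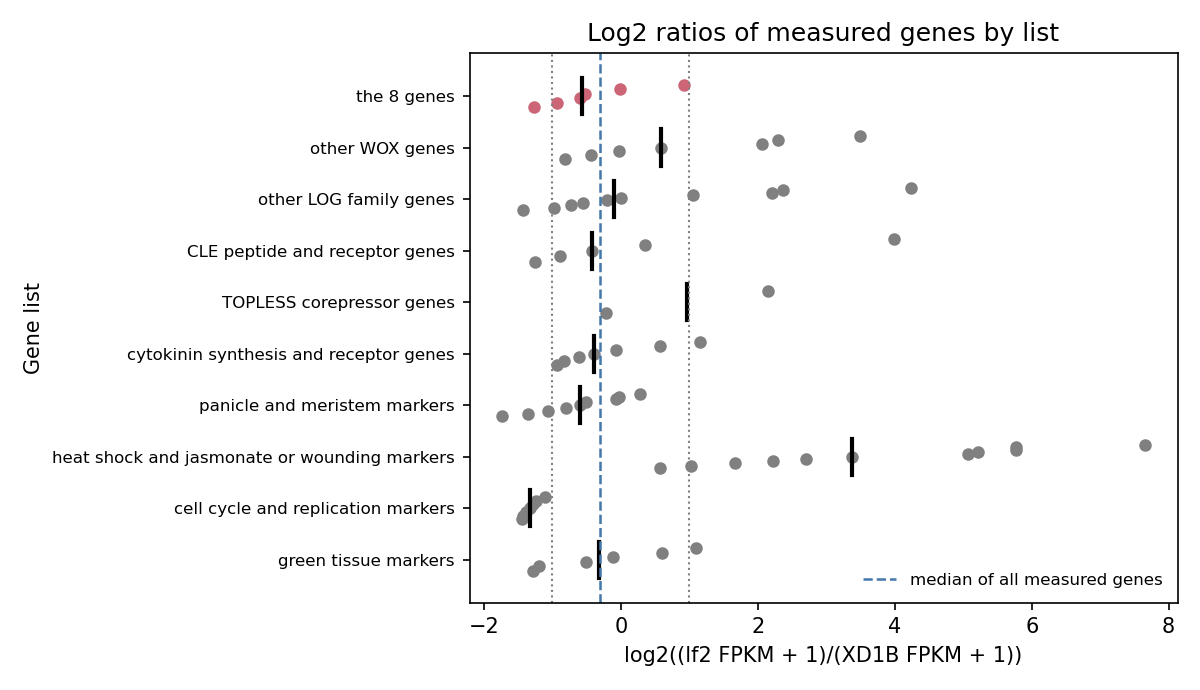
Log2 ratios of FPKM + 1, lf2 over XD1B, of the measured genes of each list (1 point per gene, black bar for the list median), with dotted lines at -1 and 1 and a dashed line at the median of all measured genes (-0.31). The 8 genes spread from -1.27 to 0.92, the heat shock and jasmonate or wounding markers lie from 0.57 upwards, and the cell cycle markers lie between -1.44 and -1.11.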

How the data were processed

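The deposited values are FPKM per gene, computed by the authors, in 1 column per library. The aligner, counting tool, genome build, annotation, strand setting and filters were not given in the sources used here. Each value was read as a fragment number over a gene length in whole bases and a library total. The totals were recovered from the lowest values, and lengths and fragments were found for 100% of 32350 genes above 0, against 24.0% of 2000 genes with a wrong total (tolerance 0.0002 fragments plus 3e-07 of the number). Fragment numbers are lower bounds, so counting intervals may be too wide. The recovery was tested on simulated data.

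Differences are log2((lf2 FPKM + 1)/(XD1B FPKM + 1)) over the 22150 genes that reached FPKM 1 in XD1B or lf2. Alternatives were pseudocounts of 0.1 and 5, no filter or one at FPKM 5, 3 rescalings, checked names alone, and NAL2 and NAL3 as 1 unit. The genes and lists were chosen with earlier results of these data known. Besides all 8 genes, the text names genes of a list that pass the 2-fold rule (the 4 most different where there are over 5), its highest gene and at most 2 markers a list, where the symbol was checked. Genes named for contrast outside that rule, namely HK4, ASPR1, WOX8, LOGL7, LOC_Os05g02730 and LOC_Os05g48990, were picked after their values were seen.

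The reference table (assembly ASM3414082v1) matched 0 loci by identifier. Symbols were compared by chromosome and position within 1.5 Mb, which passed 56 of 83 pairs and found no entry for 27, among them TAB1, NAL2, NAL3 and ASP1, whose loci were given by the choice of the 8 genes (NAL2 and NAL3 there as WOX3A and WOX3B). In 5 pairs the symbol or locus was corrected on comparison with that table (WOX7, WOX8, WOX11, ASPR1 and ASPR2), after the values had been seen for all but WOX11. No source used here gives the locus of LF2, so its level was not checked. Computation used Python 3.11.15 with scipy 1.17.1, numpy 2.4.6 and pandas 2.3.3, and figures matplotlib 3.10.9.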

Additional observations from a re-analysis of the deposited data

How the results depend on the processing

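All settings were planned except rescaling to panicle and meristem markers, chosen after seeing the data. No paired analysis was possible because each group has 1 library, and no replicate could be left out. Over all genes, those 2-fold lower numbered 2978 with a pseudocount of 0.1, 648 with 5, 389 at a median ratio of 1 and 192 on the markers, and those 2-fold higher 2183 with a pseudocount of 5. Among the 8 genes, LOG passed the 2-fold rule (1 higher) with a pseudocount of 0.1 and under each of the 3 rescalings. The number lower was 2 with a pseudocount of 0.1 or when rescaled to a sum of 1000000, and 0 under a pseudocount of 5 or a filter at FPKM 5, which drops TAB1, NAL2 and FON1 by construction. Their median log2 ratio was -0.56 in the main setting. It was -0.28 with a pseudocount of 5, -0.0109 with the filter at 5, -0.28 at a median ratio of 1 and -0.12 on the markers. ASP1 changed sign, from -0.01 to 0.38 at a median ratio of 1, 0.052 at a sum of 1000000 and 0.58 on the markers. LOG, FON1, TAB1, WOX4 and NAL2 kept their sign in every setting that retained them, but not their size. Most of this was fixed in advance, as a pseudocount or filter cannot change the sign of a gene. Each of the 3 rescalings raises lf2 relative to XD1B, so LOG could not turn, nor could NAL2, listed at 0 in lf2. Only FON1, TAB1 and WOX4 could have changed sign, under the rescalings alone. The log2 ratio of TAB1 ran from -0.29 with a pseudocount of 5 to -1.91 with 0.1, and that of NAL2 from -0.36 to -3.91. On the markers FON1 moved from -0.59 to -0.20 and WOX4 from -0.53 to -0.048. Neither of these differences on the markers exceeded counting error. LOG ran from 0.67 with a pseudocount of 5 to 1.48 on the markers. NAL2 and NAL3 summed gave -1.26.

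The median of the other WOX genes was 1.04 and 0.21 with pseudocounts of 0.1 and 5, 2.06 with the filter at 5 or with checked names, and 0.99 on the markers. The other LOG-type genes had 2 lower with a pseudocount of 0.1 and 0 on the markers, and their median turned to 0.28 at a median ratio of 1 and 0.47 on the markers. The CLE and receptor median was -0.21 without a filter, -0.65 with the filter at 5, -0.033 at a median ratio of 1, -0.36 at a sum of 1000000, 0.16 on the markers and 3.99 with checked names, where FOS1 alone remains, and 0 of its genes were 2-fold lower at a median ratio of 1, on the markers and with checked names. The TOPLESS median was 0.92, 1.36, 1.03 and 1.55 with a pseudocount of 5, a median ratio of 1, a sum of 1000000 and the markers. The cytokinin list had 2 higher and 1 lower with a pseudocount of 0.1 and 1 lower at a sum of 1000000. Its median was -0.064 without a filter, -0.49 with the filter at 5, -0.0028 at a median ratio of 1, 0.19 on the markers and 0.16 with checked names. Pseudocount, filter and rescaling act by construction. Depth limits FON2 and NAL3, with at most 5 fragments in a library, and FOS1 and WOX11 in XD1B.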
